A study of Mus musculus with 15 samples.

Results

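Red blood cells and platelets travel through every muscle, and RNA taken from a whole muscle carries their transcripts with it. The levels of 8 such transcripts were described in tibialis anterior (TA) and heart of dystrophic mice. Of these, 5 mark red cells (Hba-a1, Hba-a2, Hbb-bs, Hbb-bt and Alas2) and 3 mark platelets (Tubb1, Pf4 and Ppbp). They were found among the 56980 genes of the expression table through their Ensembl identifiers. The 8 were chosen by name, with their levels in the 4 groups of mice already known. Those levels are the values that bear on the choice, so differences of the 8 between groups are given here as descriptions, with no test.

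The study asked what a senolytic pair of drugs, dasatinib and quercetin (D + Q), does in DBA/2-mdx mice, which lack dystrophin and model Duchenne muscular dystrophy. All mice carried this background, and no mice without the dystrophin defect were sequenced here. TA came from 4 D + Q and 4 vehicle mice that were treated from 3 to 5 months of age, and hearts came from 3 D + Q and 4 vehicle mice that were treated from 12 to 16 months of age, in each case 2 times per week. Treatment therefore lasted 2 months for TA and 4 months for hearts, and tissue, age and length of treatment cannot be told apart. All 4 D + Q TA came from males, and vehicle TA came from 2 males (replicates 1 and 3) and 2 females (replicates 2 and 4). By their labels, vehicle hearts came from 2 males and 2 females and D + Q hearts from 1 male and 2 females. Each library came from 1 mouse, and the values are TPM, transcript abundances that are scaled for transcript length and sum to 1000000 in each library.

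Red cells lose their nucleus as they mature. Young red cells, the reticulocytes, still hold messenger RNA when they enter the blood, and most of it encodes the alpha and beta chains of haemoglobin. Alas2 is the red-cell form of the first enzyme of heme synthesis, whereas its paralog Alas1 serves other tissues. Platelets have no nucleus either and carry RNA from the megakaryocytes that shed them. Tubb1 encodes the beta-tubulin of the platelet's microtubule ring, and Pf4 and Ppbp encode chemokines stored in platelet granules. Pf4 is also transcribed in some tissue macrophages.

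The globin genes stand in pairs that are nearly identical. In GRCm39, Hba-a1 (chr11:32233186-32234504, plus strand) and Hba-a2 (chr11:32246168-32247320, plus strand) encode the alpha chain. Hbb-bs (chr7:103475730-103482989, minus strand) and Hbb-bt (chr7:103461727-103465047, minus strand) encode the beta chain. Alas2 lies at chrX:149330371-149353634 and Tubb1 at chr2:174292488-174299675, both on the plus strand. Ppbp (chr5:90916371-90917930) and Pf4 (chr5:90918479-90922110) are neighbours on the plus strand, with 548 bases between them. The 429 coding bases of the alpha pair differ at 1 base, C381T in exon 3, counted from the first base of the start codon with the base of Hba-a1 first. The 444 coding bases of the beta pair also differ at 1 base, C417T in exon 3, with the base of Hbb-bs first. These stretches of 60 coding bases, read 5′ to 3′ from GRCm39, are shown because they hold the one base by which coding reads can be assigned, in capitals:
Hba-a1 (chr11:32234313-32234372): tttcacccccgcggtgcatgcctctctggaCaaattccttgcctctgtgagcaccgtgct
Hba-a2 (chr11:32247130-32247189): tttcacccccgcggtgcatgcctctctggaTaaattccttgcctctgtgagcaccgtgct
Hbb-bs (chr7:103475872-103475931, minus strand): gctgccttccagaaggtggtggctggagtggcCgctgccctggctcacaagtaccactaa
Hbb-bt (chr7:103461863-103461922, minus strand): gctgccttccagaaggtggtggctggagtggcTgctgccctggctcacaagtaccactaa
A read of 51 bases, the length sequenced, would match both copies at 330 of 379 positions of the alpha coding sequence and at 366 of 394 positions of the beta coding sequence. The GRCm39 genome is from C57BL/6J, and DBA/2 mice carry another form of the beta-globin locus. How a level is shared between the copies of a pair is therefore uncertain, and the sum of the 4 adult globin genes is given beside the single genes.

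The promoters were searched for the word AGATAA, the word TGATAA, the word AGATAG and the word TGATAG on both strands, which are spellings of the motif bound by the GATA factors of red cells and megakaryocytes. The windows were 250 bases before to 50 after each gene's start, from RefSeq on GRCm38.p6, and all 8 genes had one. A word was present in 5 of the 8 windows and lay before the start in 4, compared with 29.8% and 26.5% of all 32851 windows. The 4 genes were Hba-a1, Hba-a2, Hbb-bs and Alas2. In Pf4 the word stood 37 bases after the start, and the windows of Hbb-bt, Tubb1 and Ppbp held none of these letters. Stretches of 60 bases around the word are shown for the most abundant alpha globin, the most abundant beta globin and Alas2, with the word in capitals:
Hba-a2 (chr11:32296279-32296338, plus strand, word 186 bases before the start): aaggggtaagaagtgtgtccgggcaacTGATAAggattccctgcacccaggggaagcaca
Hbb-bs (chr7:103828106-103828165, minus strand, word 210 bases before the start): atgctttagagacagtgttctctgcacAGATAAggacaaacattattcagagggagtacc
Alas2 (chrX:150547304-150547363, plus strand, word on the other strand 86 bases before the start): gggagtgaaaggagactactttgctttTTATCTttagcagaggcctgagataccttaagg
Hba-a1 holds the same 60 bases, with the word 183 bases before its start. A match describes the letters only, and no binding was measured.

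Libraries of the same group correlated at 0.977 to 0.991 on the log2 scale. The Xist level matched the labelled sex in 14 of 15 libraries, and the exception was D + Q heart replicate 3, labelled male, with 47.2 TPM. D + Q heart replicate 2 held transcripts of fast skeletal muscle, with Tnnt3 at 21.5 TPM against 0.219 to 1.77 in the other 6 hearts. A gene outside the 8 was called where limma gave a Benjamini-Hochberg adjusted p under 0.05 over all genes and an absolute log2 difference above 0.5. Myh6, Tnni3 and the other 6 heart-muscle markers were called lower in TA than in heart, and Myh4, Ckm and the other 6 skeletal-muscle markers were called higher, so the tissue labels matched their markers. Atrial transcripts differed between the heart groups, as described beside the red-cell result. In bulk tissue, fewer cells of a type and less RNA per cell cannot be told apart.

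Hbb-bs was the most abundant of the 8 in hearts, and it was far higher in vehicle hearts than anywhere else. Vehicle hearts had 438, 951, 285 and 255 TPM in replicates 1 to 4, whereas D + Q hearts had 20.9, 54.4 and 98.8 TPM. The lowest vehicle heart was thus 2.58 times the highest D + Q heart. The group means were 482 ± 323 (SD, n = 4) and 58.0 ± 39.1 TPM (SD, n = 3), a ratio of 8.31. Levels differed 3.73-fold among vehicle hearts and 4.72-fold among D + Q hearts, so the groups did not overlap but the spread within each was wider than the gap between them. In TA, Hbb-bs was 36.5, 19.4, 17.7 and 29.1 TPM in D + Q mice and 39.1, 16.6, 36.9 and 12.5 TPM in vehicle mice. The TA groups overlapped throughout. In vehicle TA the 2 values below 20 TPM were those of the females.

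Its partner Hbb-bt and the alpha globins also stood highest in vehicle hearts, at lower levels. Hba-a2 was 72.6, 149, 58.1 and 55.5 TPM in vehicle hearts and 3.09, 13.6 and 13.2 TPM in D + Q hearts. The means were 83.7 ± 43.9 (SD, n = 4) and 9.96 ± 5.95 TPM (SD, n = 3). Every vehicle heart lay above every D + Q heart. In TA, Hba-a2 was between 3.33 and 6.50 TPM in D + Q mice and between 0.549 and 7.02 TPM in vehicle mice. Hbb-bt was 6.08, 15.3, 5.04 and 6.22 TPM in vehicle hearts, and in D + Q hearts it was listed at 0 in replicate 1 and at 0.812 and 1.74 TPM in the others. Over whole transcripts, 79.4% of the 51-base stretches of Hba-a1 and 91.5% of those of Hba-a2 also occur in the partner copy. For Hbb-bs and Hbb-bt these shares are 61.9% and 58.1%. Hba-a1 was 6.31, 12.5, 1.29 and 2.87 TPM in vehicle hearts, was listed at 0 in D + Q heart replicate 1, and was 0.900 and 0.50 TPM in the other D + Q hearts. In TA, Hba-a1 reached at most 1.18 TPM and Hbb-bt at most 1.18 TPM, with Hba-a1 listed at 0 in D + Q replicate 2.

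The 4 adult globins summed to 580 TPM in vehicle hearts, 69.3 TPM in D + Q hearts, 32.1 TPM in vehicle TA and 31.5 TPM in D + Q TA. Balance between the chains moved little. The ratio of beta to alpha globin was 5.25 ± 0.692 in vehicle hearts (SD, n = 4), 5.97 ± 1.89 in D + Q hearts (SD, n = 3), 6.44 ± 2.68 in vehicle TA (SD, n = 4) and 5.01 ± 0.779 in D + Q TA (SD, n = 4). These ranges overlapped, so the balance of the chains was similar where their levels were not. The 4 embryonic globin genes stayed between 0 and 0.0949 TPM in every library.

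Alas2 followed the globins. It was 47.5, 103, 23.3 and 26.9 TPM in vehicle hearts and 2.73, 4.51 and 7.25 TPM in D + Q hearts, with means of 50.2 ± 36.9 (SD, n = 4) and 4.83 ± 2.28 TPM (SD, n = 3). The ratio of these means was 10.4, and the lowest vehicle heart was 3.21 times the highest D + Q heart. TA levels were near those of D + Q hearts, at 3.36, 4.50, 1.71 and 3.31 TPM in D + Q mice and 4.06, 2.23, 3.91 and 1.13 TPM in vehicle mice. For each TPM of Alas2 there were 10.04 TPM of Hbb-bs in vehicle hearts, 11.1 in D + Q hearts, 9.39 in vehicle TA and 8.59 in D + Q TA.

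Among the platelet genes, Tubb1 was the most restricted to hearts. It was 4.21, 9.12, 4.76 and 2.47 TPM in vehicle hearts and 0.965, 1.06 and 0.454 TPM in D + Q hearts. The means were 5.14 ± 2.83 (SD, n = 4) and 0.827 ± 0.327 TPM (SD, n = 3), and the lowest vehicle heart was 2.33 times the highest D + Q heart. In TA it never exceeded 0.173 TPM, so it stayed under the filter of 0.5 TPM used for the TA model. Heart vehicle, heart D + Q and TA did not overlap for this gene. Of the other beta-tubulin genes, 6 were tested in heart, their median log2 difference was 0.13 and none was called.

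Ppbp was high in vehicle hearts and scattered in D + Q hearts. It was 27.7, 45.1, 20.7 and 15.6 TPM in vehicle hearts, and 5.73, 24.8 and 1.24 TPM in D + Q hearts. D + Q heart replicate 2 lay within the vehicle range, so the groups overlapped, and the highest D + Q heart was 20.0 times the lowest. In TA, Ppbp was 2.44, 0.734, 0.362 and 1.96 TPM in D + Q mice and 1.29, 0.919, 1.62 and 0.920 TPM in vehicle mice. The TA range was below every vehicle heart.

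Pf4 was the exception among the 8, with similar levels in all 4 groups. It was 19.2, 28.2, 20.8 and 19.7 TPM in vehicle hearts and 19.0, 21.7 and 17.0 TPM in D + Q hearts. In TA it was 59.3, 20.3, 14.9 and 30.2 TPM in D + Q mice and 25.8, 23.1, 37.1 and 14.9 TPM in vehicle mice. Neighbouring groups overlapped along the whole order, from D + Q TA (31.2 ± 19.8 TPM, SD, n = 4) to D + Q hearts (19.2 ± 2.33 TPM, SD, n = 3). Pf4 and its neighbour Ppbp therefore stood in very different proportion in the tissues: the ratio of Pf4 to Ppbp was 0.896 ± 0.296 in vehicle hearts (SD, n = 4) and 21.0 ± 3.86 in vehicle TA (SD, n = 4). In D + Q hearts the ratio ran from 0.874 in replicate 2 to 13.8 in replicate 3.

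**Figure D1:**
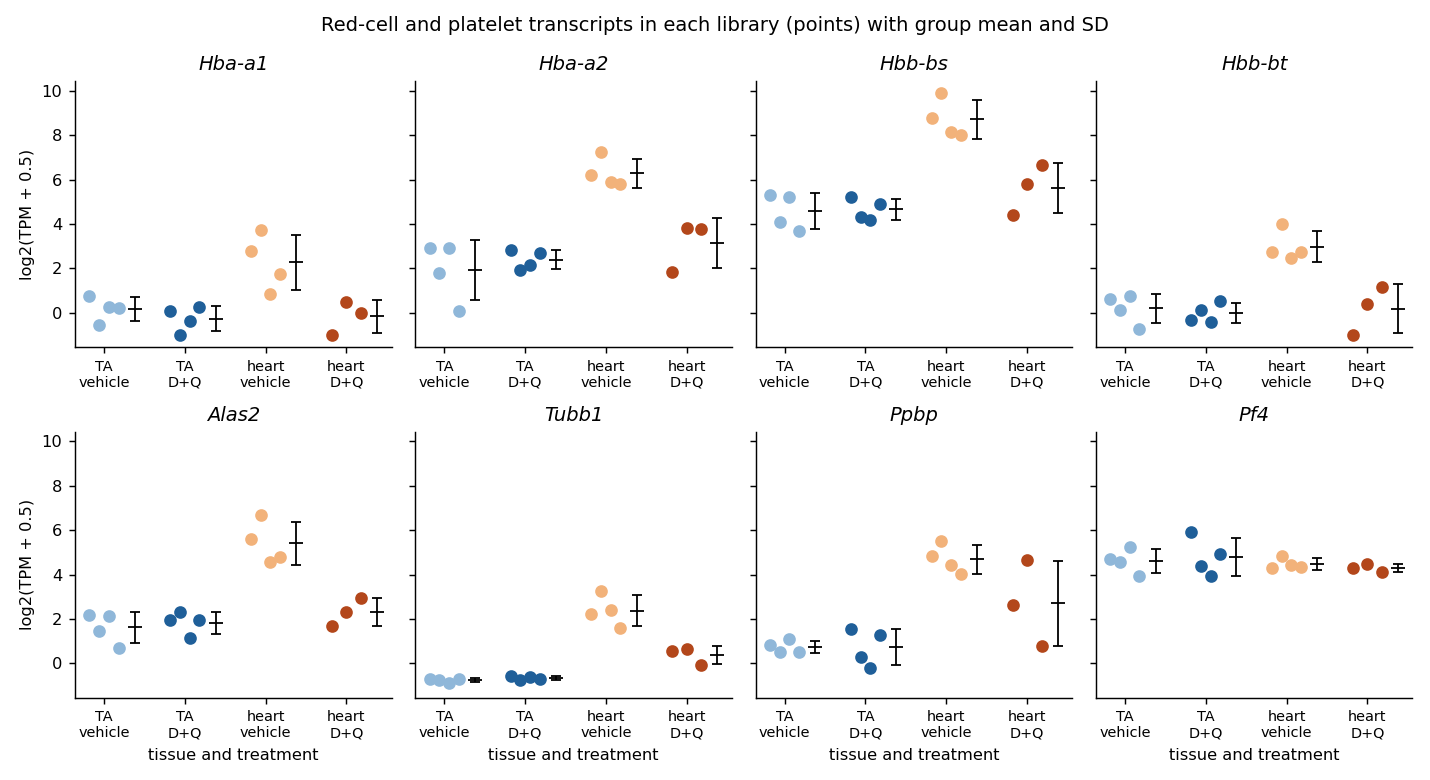
Levels of the 8 transcripts in each of the 15 libraries, with log2(TPM + 0.5) on the vertical axis, 1 point per mouse and the 4 groups side by side. Vehicle hearts stand above all other groups for the 4 globins, Alas2 and Tubb1, Ppbp overlaps between the heart groups, and Pf4 overlaps in all groups.

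The first comparison asked how the 8 transcripts stood after D + Q in old hearts. All 8 had negative fitted differences, as did 50.5% of all genes, and for 6 (Hba-a1, Hba-a2, Hbb-bs, Hbb-bt, Alas2 and Tubb1) every D + Q heart lay below every vehicle heart. Of all 16132 genes tested in heart, 5.57% were separated in this direction. The log2 differences, D + Q minus vehicle on log2(TPM + 0.5) with labelled sex in the model, were −3.12 (SE 0.57) for Hba-a2, −3.06 (SE 0.62) for Hbb-bs, −2.75 (SE 0.56) for Hbb-bt and −2.42 (SE 0.70) for Hba-a1. Alas2 stood at −3.07 (SE 0.55), close to the major globins. For the platelet genes the differences were −2.13 (SE 0.25) for Tubb1, −2.23 (SE 0.65) for Ppbp and −0.22 (SE 0.11) for Pf4. The median of the 8 was −2.58, beside −0.00 for all genes tested, and 7 were below −1, as were 1.09% of all genes.

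Vehicle heart replicate 2 had the highest level of all 8 among vehicle hearts, and D + Q heart replicate 2 was nearest to vehicle for Ppbp. Without vehicle heart replicate 2 the log2 difference was −2.41 for Hbb-bs and −2.40 for Alas2. The same 6 genes remained separated when any single heart was left out, except that without D + Q heart replicate 2 Pf4 and Ppbp were separated too and all 8 were lower. In those fits 6.04% to 11.5% of all genes were separated in this direction. For Ppbp the difference ran from −2.97 without D + Q heart replicate 2 to −1.31 without D + Q heart replicate 3.

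**Figure D2:**
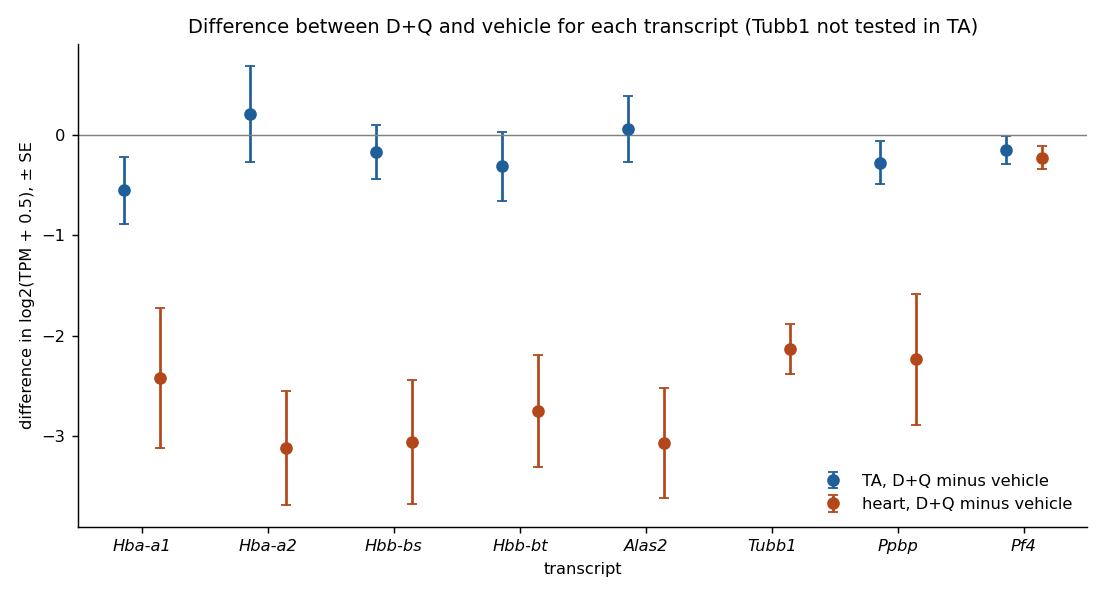
Fitted log2 difference, D + Q minus vehicle, of each transcript in TA and in heart on the vertical axis, with bars of 1 SE. In heart the values run from −3.12 to −0.22, and in TA they lie around 0; Tubb1 was below the filter in TA.

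Atrial transcripts moved between the same heart groups. For each of the 4 markers of atrial muscle the highest D + Q heart lay under the lowest vehicle heart, and 3 were called lower, as were 0.211% of all genes: Myl7, the atrial regulatory light chain (log2 difference −6.38, SE 0.46, adjusted p = 0.00904), Myl4, the atrial essential light chain (−6.12, SE 0.37, adjusted p = 0.00668), and Sln, sarcolipin (−5.46, SE 0.41, adjusted p = 0.00997). Nppa, the atrial natriuretic peptide, stood at −1.61 (SE 0.41, adjusted p = 0.126). The summed level of the 4 was 862, 4260, 2204 and 1083 TPM in vehicle hearts and 382, 427 and 427 TPM in D + Q hearts. Without vehicle heart replicate 2 the adjusted p of Myl7, Myl4 and Sln was 0.0619, 0.0503 and 0.0619, and without D + Q heart replicate 2 that of Myl7 and Sln was 0.0556. The hearts thus differed in the RNA level of these 4 atrial markers, and the part of this in the red-cell result was not tested. Vehicle heart replicate 2 had the highest atrial sum and the highest Hbb-bs, and the 3 D + Q hearts were the lowest in both. Among the other vehicle hearts, replicate 1 had the lowest atrial sum and the highest Hbb-bs. The 8 heart-muscle markers were all slightly higher in D + Q hearts (median 0.26), and none was called. Without overlap, 6 of them were higher, as were 9.63% of all genes. Of these, Myl2 was at 0.35 (SE 0.10, adjusted p = 0.144), Actc1 at 0.32 (SE 0.07, adjusted p = 0.0980), Myh6 at 0.27 (SE 0.09, adjusted p = 0.195), Myl3 at 0.27 (SE 0.09, adjusted p = 0.183) and Tnni3 at 0.26 (SE 0.06, adjusted p = 0.118). The skeletal-muscle genes Ckm, muscle creatine kinase, and Tnnt3, fast troponin T, were separated too, at 0.18 (SE 0.06, adjusted p = 0.187) and 2.05 (SE 0.76, adjusted p = 0.230), the latter led by D + Q heart replicate 2.

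Other red-cell genes were mostly at low levels. Of 27 listed genes 26 were found in the table and 12 passed the filter in heart. Of these 12, 9 had negative differences, the median was −0.58, beside −0.00 for all genes tested, and none was called. Tent5c, which encodes a poly(A) polymerase, was 10.3, 19.7, 4.94 and 6.87 TPM in vehicle hearts and 0.868, 1.66 and 1.76 TPM in D + Q hearts (log2 difference −2.36, SE 0.45, limma adjusted p = 0.0934). It lay lower in every D + Q heart without passing the threshold. Slc25a37, the mitochondrial iron importer mitoferrin, was also separated, at −1.07 (SE 0.28, adjusted p = 0.131). The most abundant genes of the list did not share this direction. Ank1, ankyrin, and Sptb, beta-spectrin, which muscle also makes, were higher in every D + Q heart, at 0.35 (SE 0.07, adjusted p = 0.0959) and 0.20 (SE 0.06, adjusted p = 0.167), and so was Rhd, at 0.28 (SE 0.13, adjusted p = 0.336). The summed level of the list overlapped, at 252 to 309 TPM in vehicle hearts and 270.4 to 286 TPM in D + Q hearts. Bpgm, the enzyme that makes 2,3-bisphosphoglycerate, overlapped between the groups. Slc4a1, the anion exchanger of the red-cell membrane, was low throughout and reached at most 2.21 TPM, in vehicle heart replicate 2. It was picked with its values in view.

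The other enzymes of heme synthesis stood near 0. All 8 of its enzymes outside the red-cell form Alas2 were tested in heart, 5 had positive differences, the median was 0.08 and none was called. The most abundant were Alas1, the housekeeping counterpart of Alas2, Fech, which inserts the iron, and Alad, the second enzyme. Alas1 was 124, 116, 171 and 126 TPM in vehicle hearts and 170, 172 and 197 TPM in D + Q hearts. In hearts Alas1 thus exceeded Alas2 in every library, including vehicle heart replicate 2.

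The other platelet and megakaryocyte genes lay lower in D + Q hearts with overlap. Of 22 listed genes 14 passed the filter, all 14 had negative differences from −2.03 to −0.09, the median was −0.97, beside −0.00 for all genes tested, and none was called. P2ry12, the platelet ADP receptor, and Mmrn1, multimerin, were separated, at −0.93 (SE 0.20, limma adjusted p = 0.108) and −0.48 (SE 0.14, adjusted p = 0.155). Nrgn, neurogranin, one of the most abundant of the list, was 17.4, 36.4, 20.3 and 10.9 TPM in vehicle hearts and 4.55, 16.0 and 1.74 TPM in D + Q hearts (−2.03, SE 0.46, adjusted p = 0.111). D + Q heart replicate 2 again lay among the vehicle hearts, as for Ppbp. Itgb3, the beta subunit of the fibrinogen receptor, repeated this order, with 3.42 TPM in D + Q heart replicate 2 beside 1.57 and 0.878 TPM in the other D + Q hearts. Gng11, the most abundant, was 16.7 to 21.9 TPM in D + Q hearts and 19.8 to 24.1 TPM in vehicle hearts. The summed level of the list was 65.2, 116, 68.3 and 52.1 TPM in vehicle hearts and 39.3, 62.9 and 27.6 TPM in D + Q hearts.

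Markers of other blood and tissue cells were measured beside these. The 12 macrophage markers had a median difference of −0.19 and a summed level of 200 to 300 TPM in vehicle hearts and 204 to 267 TPM in D + Q hearts, led by C1qa, C1qb and C1qc. The 5 neutrophil markers tested had a median of −0.06. Their sum, led by S100a8, S100a9 and Csf3r, was 44.7 TPM in vehicle heart replicate 2 and 4.09 to 6.49 TPM in the other vehicle hearts, and 2.67, 26.7 and 13.2 TPM in D + Q hearts. On deviations from group means over the 7 hearts, S100a8 and S100a9 had r of 0.83 and 0.84 with Hbb-bs, and of 0.91 and 0.94 with Hba-a2. In TA the same values were 0.31 and 0.18 with Hbb-bs, and 0.45 and 0.22 with Hba-a2. Of all genes, 2.31% had r of 0.80 or more with Hbb-bs in heart. No r was computed for the other neutrophil markers. Vehicle heart replicate 2 was highest among vehicle hearts in the neutrophil sum and in the red-cell transcripts. Of the lymphocyte markers 4 were tested and all 4 were negative with a median of −0.47, and the summed level of the 11 listed did not overlap, at 11.8 TPM or more in vehicle hearts and 11.3 TPM or less in D + Q hearts. This list was led by Ighm, the immunoglobulin M heavy chain, lower in every D + Q heart (−0.81, SE 0.14, adjusted p = 0.0848) and the more weakly detected Cd3e and Cd3g of T cells next in abundance. The 8 endothelial markers had a median of −0.00, and Kdr, a receptor for vascular endothelial growth factor, was higher in every D + Q heart (0.33, SE 0.06, adjusted p = 0.0934). None of these genes was called, and their part in the red-cell result was not tested.

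**Figure D3:**
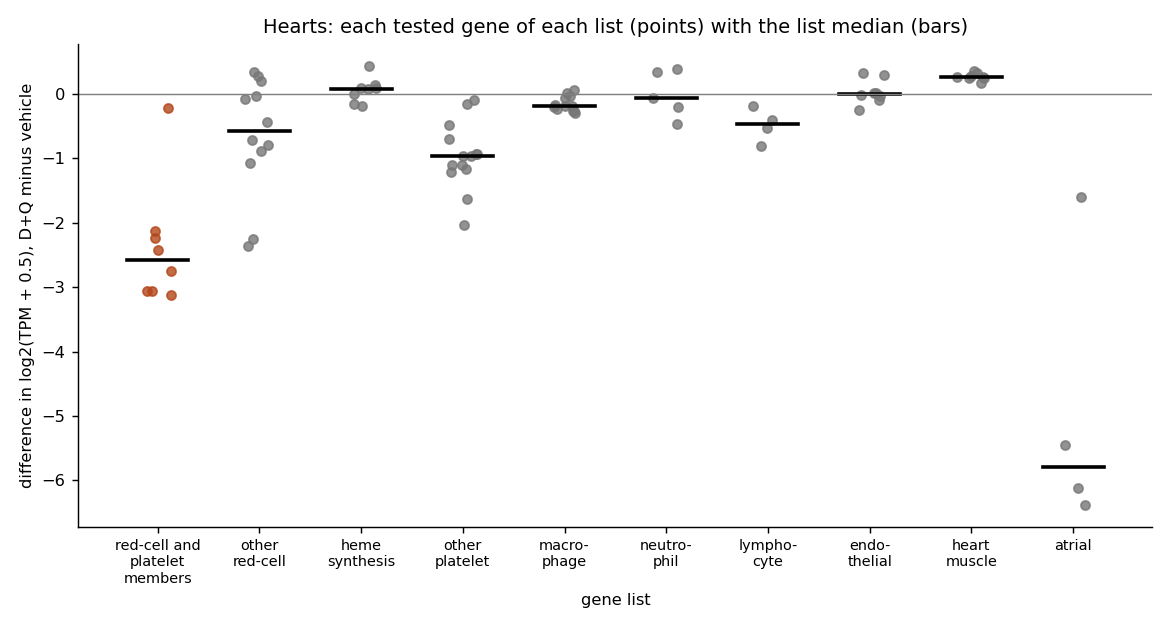
Fitted log2 difference, D + Q minus vehicle in heart, of each tested gene by list, with 1 point per gene on the vertical axis and the lists along the horizontal axis. The 8 transcripts have a median of −2.58, the other platelet genes −0.97, the other red-cell genes −0.58 and heme synthesis 0.08.

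The second comparison asked the same in TA of young mice. Of the 8, 7 passed the filter. All 8 overlapped between D + Q and vehicle, whereas 0.264% of all genes were separated with D + Q higher and 1.25% with D + Q lower. Of all 16298 genes tested in TA, 0% were called in limma and 488 (2.99%) had an unadjusted p under 0.05. The log2 differences, with 1 surrogate variable in the model, were −0.17 (SE 0.27) for Hbb-bs, 0.21 (SE 0.48) for Hba-a2, −0.55 (SE 0.33) for Hba-a1, −0.31 (SE 0.35) for Hbb-bt and 0.06 (SE 0.33) for Alas2. Pf4 stood at −0.15 (SE 0.14) and Ppbp at −0.28 (SE 0.22). The signs depended on the model: with labelled sex in place of the surrogate variable, Alas2 became −0.33 and Hba-a2 −0.51, and with no covariate Hbb-bs became 0.07 and Pf4 0.18. None of the other red-cell (9 tested), heme synthesis (8), platelet (10), macrophage (12), neutrophil (6), lymphocyte (1) or endothelial (8) genes was called in TA. Emcn, an endothelial sialomucin, was the one gene of these lists separated between the TA groups (−0.25, SE 0.13, limma adjusted p = 0.999).

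In vehicle mice, 7 of the 8 transcripts were higher in old hearts than in young TA, without overlap, and the exception was Pf4. Of all 17868 genes tested, 15% were separated in this direction. The log2 differences, TA minus heart, were −4.35 (SE 0.58) for Hba-a2, −4.12 (SE 0.50) for Hbb-bs, −2.78 (SE 0.45) for Hbb-bt, −2.10 (SE 0.52) for Hba-a1 and −3.79 (SE 0.45) for Alas2. Ppbp stood at −3.95 (SE 0.62), Tubb1 at −3.12 (SE 0.27) and Pf4 at 0.14 (SE 0.34), which became −0.07 without vehicle TA replicate 3 and −0.05 with median-of-ratios scaling. As a ratio of mean TPM, vehicle heart over vehicle TA, these were 18.4 for Hbb-bs, 17.7 for Alas2, 23.0 for Ppbp, 55.9 for Tubb1 and 0.872 for Pf4. The median of all genes was 0.16 in this contrast. Of the other platelet genes 10 of 15 tested were called lower in TA, beside 14.1% of all genes, and none higher, with the lowest value for Nrgn (−4.47). Of the other red-cell genes 5 of 12 were called lower and 3 higher. The macrophage list went both ways, with 3 of 12 called in each direction. Of all genes, 22.6% were called higher in TA, so the 3 of 12 called higher in both lists was near that share.

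In D + Q mice the tissues stood closer together. Hbb-bs differed by −0.96, Hba-a2 by −0.75, Alas2 by −0.49, Hbb-bt by −0.20, Hba-a1 by −0.10, Tubb1 by −1.03 (SE 0.29), Ppbp by −1.96 (SE 0.67) and Pf4 by 0.49. Hbb-bt became 0.29 without D + Q heart replicate 3 and Hba-a1 0.23 without D + Q heart replicate 2 and 0.15 without D + Q TA replicate 2. Tubb1 alone was separated between the tissues, as were 19.9% of all genes in this direction. In mean TPM, the 4 adult globins were 2.20 times as high in D + Q hearts as in D + Q TA, whereas in vehicle mice they were 18.1 times as high.

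The difference between the D + Q effects in the tissues, TA minus heart, was positive for all 8 transcripts, and for 39.6% of all genes. On the log2 scale it was 3.60 for Hba-a2, 3.30 for Alas2, 3.16 for Hbb-bs, 2.58 for Hbb-bt, 2.10 for Tubb1, 2.01 for Hba-a1, 1.99 for Ppbp and 0.36 for Pf4. The value of Pf4 became −0.01 without D + Q TA replicate 1, the library with the highest Pf4. This contrast and the treatment comparisons use the same libraries, and tissue cannot be told apart from age and length of treatment in it.

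The third question was whether red-cell and platelet transcripts varied together between mice. It was tested with 12 relations: Hbb-bs and Alas2, each with Tubb1, Pf4 and Ppbp, in TA and in heart, on log2(TPM + 0.5). In TA, mice with more Hbb-bs also had more Pf4. Pearson's r over the 8 mice was 0.81 (exact permutation p = 0.0137, adjusted p = 0.0587 over the 12 relations, two-sided), and Spearman's rho was 0.76 (exact permutation p = 0.0368, adjusted p = 0.192). These adjustments, here and for the other TA relations, took in heart relations pooled over both treatment groups. The pooled heart values carry the group difference in hearts, so the adjusted p values in TA depend on it in part. Without the 2 mice farthest from the median of Hbb-bs, r was 0.88. With each value taken as its deviation from the mean of its group and permuted within groups, r was 0.81 (exact permutation p = 0.00347, adjusted p = 0.0417), the one relation of 12 past 0.05 in this form. Of all genes, 2.08% had as high an r with Hbb-bs as Pf4 did and 8.81% as high an r with Pf4 as Hbb-bs did, on the same deviations, and the macrophage marker Cd68 had r of 0.80 with Hbb-bs. The 4 TA with the most Hbb-bs (vehicle replicates 1 and 3 and D + Q replicates 1 and 4) were also the 4 with the most Pf4. The surrogate variable of the TA model was highest in D + Q replicate 1, vehicle replicate 3 and D + Q replicate 4, and its part in this relation was not tested.

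Ppbp in TA pointed the same way with less support. For Hbb-bs and Ppbp, r was 0.72 (exact permutation p = 0.0478, adjusted p = 0.144), rho was 0.57 (exact permutation p = 0.151, adjusted p = 0.302), and r was 0.87 without the 2 farthest mice. For Alas2, r was 0.61 with Pf4 (exact permutation adjusted p = 0.247) and 0.47 with Ppbp (exact permutation adjusted p = 0.288). Both Alas2 relations rested on the 2 farthest mice, since r became −0.03 and −0.03 without them. Tubb1, whose TA values are all under 0.2 TPM, gave r of −0.11 with Hbb-bs (exact permutation adjusted p = 0.792) and −0.34 with Alas2 (exact permutation adjusted p = 0.449).

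**Figure D4:**
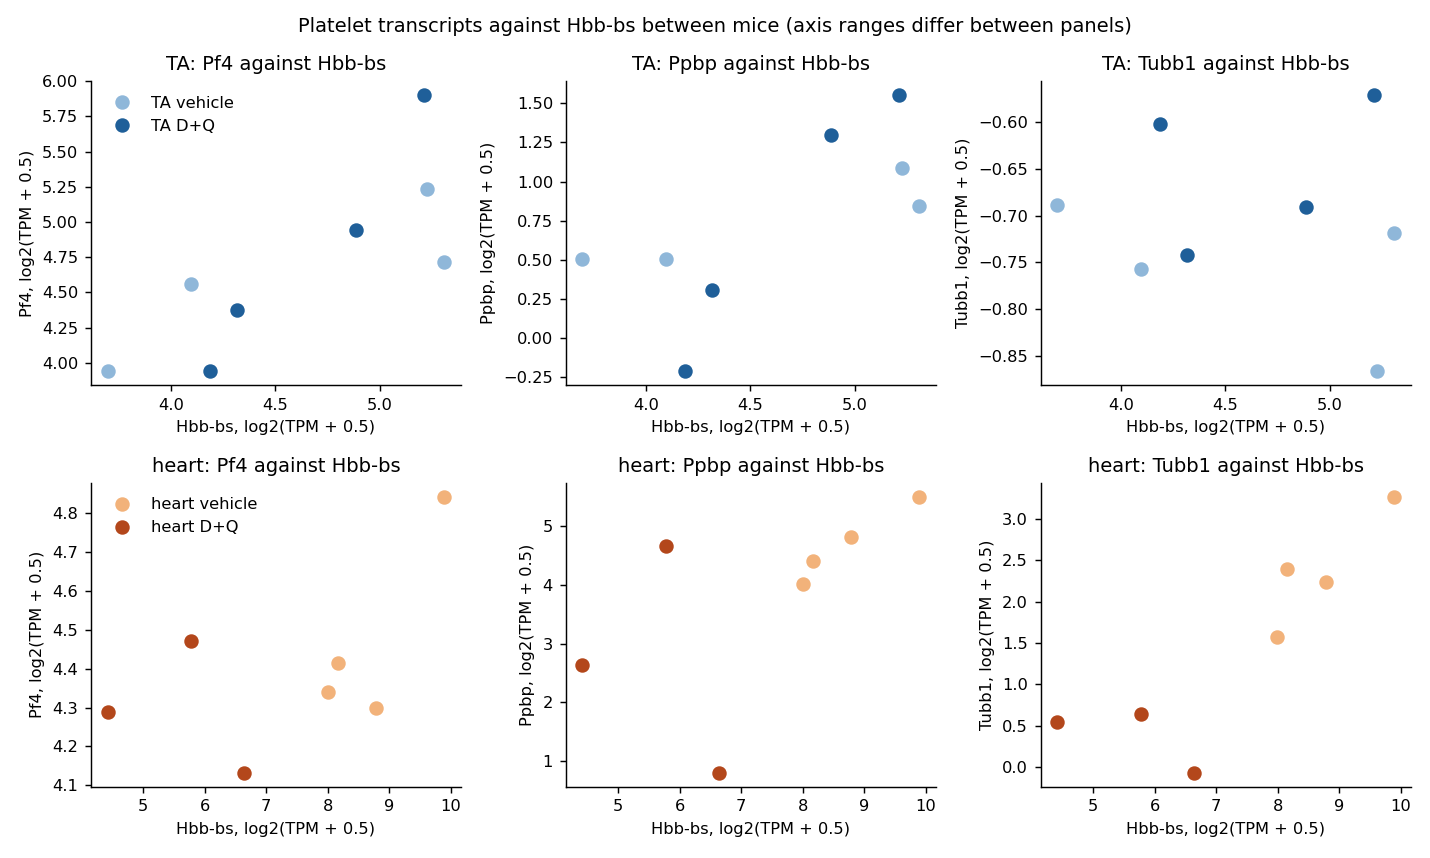
Log2(TPM + 0.5) of Tubb1, Pf4 and Ppbp on the vertical axes against that of Hbb-bs on the horizontal axis, 1 point per mouse, with TA and heart in separate panels and the treatment groups in different colours. In TA Pf4 and Hbb-bs vary together (r = 0.81, n = 8), and in heart the D + Q and vehicle mice form separate clusters along Hbb-bs.

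In hearts the D + Q and vehicle mice formed separate clusters along Hbb-bs and Alas2, so no pooled r is given and the groups, with 4 and 3 mice, are too small for one of their own. For deviations from the group means over the 7 hearts, r of Hbb-bs was 0.34 with Tubb1, 0.39 with Pf4 (exact permutation within groups, adjusted p = 0.593 for both) and 0.01 with Ppbp (exact permutation adjusted p = 0.993). For Alas2, r was 0.49 with Tubb1, 0.51 with Pf4 (exact permutation adjusted p = 0.593 for both) and 0.10 with Ppbp (exact permutation adjusted p = 0.879). None was past 0.05. Red-cell and platelet levels parted most in the D + Q hearts: the highest Hbb-bs, 98.8 TPM in replicate 3, stood beside the lowest Ppbp, 1.24 TPM, and Hbb-bs over Ppbp ran from 2.19 in replicate 2 to 79.9 in replicate 3. In vehicle hearts the same ratio was 16.7 ± 3.11 (SD, n = 4).

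Red-cell transcripts had a higher median r with each other than with platelet transcripts, as a description over the same 8 TA and 7 hearts and on deviations from group means. Among the 10 pairs of red-cell genes the median r was 0.75 in TA (range 0.14 to 0.91) and 0.88 in heart (range 0.74 to 0.96). Among the 15 pairs of a red-cell with a platelet gene it was 0.43 in TA (range −0.69 to 0.81) and 0.38 in heart (range −0.05 to 0.58). The pairs share libraries and genes, so their number is not a number of independent observations. Copies of a globin pair also share most 51-base stretches, and the part of this in their r was not tested. In TA the pairs with Tubb1, at most 0.173 TPM there, ran from −0.69 to 0.33. Hbb-bs in TA had r of 0.81 with Pf4. This was below its 0.91 with Hba-a2 but above its 0.78 with Alas2, 0.72 with Hbb-bt and 0.64 with Hba-a1. Platelet genes went together in hearts, with r from 0.67 to 0.88 in the 3 pairs, although such values were common: 16.2% of all genes had as high an r with Ppbp as Tubb1 did, 12.7% as Pf4 did, and 6.09% had as high an r with Pf4 as Tubb1 did. In TA, Pf4 and Ppbp had r of 0.90, whereas Tubb1 went with neither.

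Pf4 and Ppbp also went with macrophage markers. The median r of Pf4 with the 12 macrophage genes, on deviations from group means, was 0.74 in TA and 0.79 in heart, with Mrc1, the macrophage mannose receptor, at 0.88 and 0.98. Ppbp was close to this, with medians of 0.66 and 0.64 and Mrc1 at 0.93 and 0.77. For Hbb-bs the medians with the same genes were 0.51 and 0.27. High values were also common among all genes. With Pf4 in TA, 16.3% of all genes had r of 0.68 or more and 8.81% had 0.81 or more, on either side of the macrophage median. In heart 21.6% had 0.71 or more and 6.09% had 0.88 or more, again on either side of it. With Ppbp, 18.6% had 0.61 or more and 12.4% had 0.72 or more in TA. In heart 16.2% had 0.67 or more, a value above the macrophage median. Whether macrophage markers stood out from all genes was not tested. The endothelial marker Pecam1 had r of 0.51 in TA and 0.94 in heart with Pf4. Itga2b, the platelet integrin alpha chain, chosen after its values were seen, had r with Pf4 of 0.05 in TA and 0.94 in heart. Ppbp with Nrgn gave 0.03 in TA and 0.97 in heart. Both pairs were thus near 0 in TA and near 1 in heart, but other platelet genes did not all share this. Itgb3 had r of 0.80 in TA and 0.92 in heart with Pf4, and of 0.85 and 0.88 with Ppbp. Gp9, also on the platelet list, had −0.17 and 0.91 with Pf4, and −0.43 and 0.85 with Ppbp. Hbb-bs correlated with Tent5c in both tissues (0.80 in TA, 0.86 in heart), and likewise with Slc25a37 (0.65 and 0.79).

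**Figure D5:**
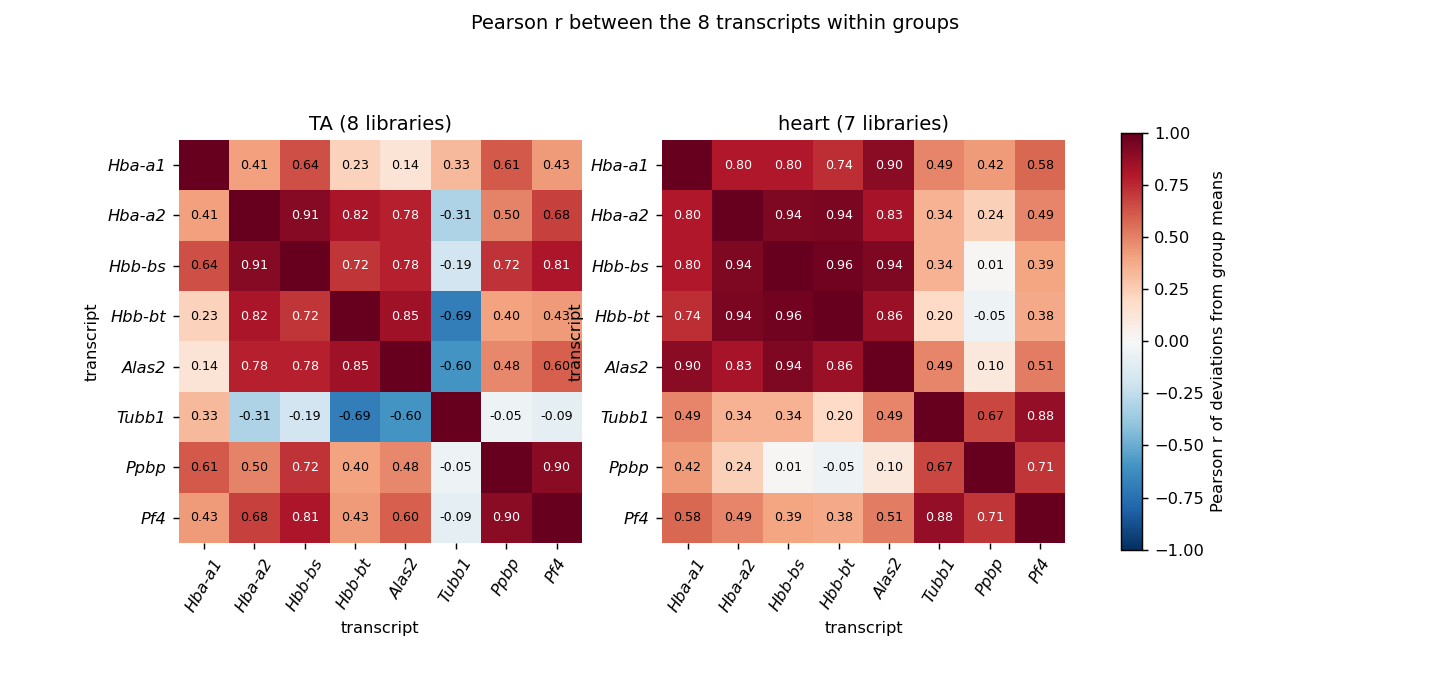
Pearson's r between the 8 transcripts on deviations from group means of log2(TPM + 0.5), for 8 TA and 7 hearts, with colour from −1 to 1. Red-cell pairs have a median of 0.75 in TA and 0.88 in heart, and pairs across the classes 0.43 and 0.38.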

How the data were processed

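RNA from 8 TA and 7 hearts, 1 mouse each, was made into mRNA libraries and read as paired ends of 51 bases. According to the submitters' processing notes and the study's methods, reads were trimmed with Trim Galore 0.6.10 and quantified with Salmon 1.10.3 against GRCm39. The authors deposited TPM for 56980 genes, and 56236 identifiers were found in GENCODE M39. TPM keeps no depth, so counting error is unknown, and all errors are the spread between mice. A listed 0 may be a failed estimate.

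Values were fitted as log2(TPM + 0.5) with limma 3.58.1 (trend) in R 4.3.3, for genes that reached 0.5 TPM in 3 or more libraries. The TA model held 1 surrogate variable and the heart model labelled sex. Tissue and interaction contrasts used 4 group means over 15 libraries. Fold changes on this scale understate low genes. Relations used exact permutation tests written with numpy 2.4.6, with ranks from scipy 1.17.1. The code was tested on simulated data.

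The members and the gene lists were chosen with earlier results of these data known. Named list genes were those called, separated between treatment groups (up to 5 per list) or among the 3 most abundant of a blood list, and some are not reported here. Alternatives were pseudocounts of 0.1 and 1, other filters, median-of-ratios scaling, other covariates, a replicate block and leaving out each library. The numbers of replicates are shared between groups but mark different animals, with a mean correlation of same-numbered deviations of −0.024, so they do not pair.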

Additional observations from a re-analysis of the deposited data

Results flagged for a closer look

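Within each group of 4, the distance of an outlying library from its neighbour was set against Dixon's critical value for the 8 transcripts, 24 groups in all, of which chance marks about 1 in 20. Hbb-bt in vehicle heart replicate 2, at 15.3 TPM beside 5.04 to 6.22 TPM in the other vehicle hearts, was the 1 that passed. The same heart had the highest level of the other 7 transcripts among vehicle hearts.

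The D + Q effects on 3 atrial genes differed between the tissues in limma's interaction term, as TA effect minus heart effect: Myl7 by 6.16 on the log2 scale (adjusted p = 0.000670), Myl4 by 6.14 (adjusted p = 0.00197) and Sln by 4.77 (adjusted p = 0.0320). Myl7 was listed at 0 in all 8 TA.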

How the results depend on the processing

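Of the alternatives run, none changed the sign of any of the 8 transcripts in the heart treatment comparison. In TA, signs changed in 8 of 54 values under other settings and in 6 of 56 with 1 library left out. The heart count of called genes was 51 (17 higher, 34 lower), and it was 0 in limma with no filter on low values (3731 genes at an unadjusted p under 0.05), 25 with sex read from Xist, 4 with the replicate block, and 0 (without vehicle replicate 2, with 2154 genes at an unadjusted p under 0.05) to 136 (without vehicle replicate 3) when 1 heart was left out. The TA count was 0, and 0 to 2 when 1 TA was left out. The interaction count was 11, and it was 7 with a pseudocount of 1, 5 with no filter, 5 with the replicate block and 5 to 14 when 1 library was left out. Median-of-ratios scaling moved the median tissue difference in vehicle mice from 0.16 to −0.00 and the calls from 4038 higher and 2518 lower in TA to 2926 and 3288, and in D + Q mice from 3824 and 2847 to 3278 and 3465. The number of relations past 0.05 was 0 in TA and 1 for deviations from group means, and in hearts it was 0, and 0 to 1 when 1 heart was left out (1 without D + Q replicate 3, Hbb-bs with Tubb1). The heart counts are of r pooled over treatment groups that form separate clusters, so they carry the group difference and are no evidence that the transcripts vary together. In TA, r of Alas2 with Pf4 and with Ppbp became −0.027 and −0.029 without the 2 farthest mice, r of Hbb-bs with Tubb1 ran from −0.46 to 0.26 when 1 TA was left out (0.26 without vehicle replicate 3, 0.02 without D + Q replicate 3), and the log2 difference of Sln went from −0.49 to 0.22 with labelled sex, and ran from −0.79 to 0.24 (without D + Q replicate 3) when 1 TA was left out. The cause of these changes was not tested, and the missing depth limits statements on the genes near 0.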

Other observations

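The genes whose pattern between mice was most like that of Hbb-bs were looked for among 14914 genes tested in both tissues, by the smaller of the r values in 8 TA and 7 hearts on deviations from group means, with no test. Lmo4, a LIM-domain transcription cofactor, came first (0.82 in TA and 0.82 in heart), followed by AU021092 (0.89 and 0.81), Tbcc, a tubulin-folding cofactor (0.81 and 0.80), Tent5c (0.80 and 0.86) and Fbxo6 (0.80 and 0.81). Of these, Tent5c is the one that was also on the red-cell list.

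The 5 genes most like Ppbp had higher values. They were Abhd2 (0.93 and 0.93), Angptl4, an inhibitor of lipoprotein lipase (0.92 and 0.96), Bmp2k (0.94 and 0.91), Slc2a1, the glucose transporter GLUT1 (0.94 and 0.90), and Psme2, a subunit of a proteasome activator (0.96 and 0.90). None of them was on the platelet list. Angptl4 was 34.7, 6.68, 5.33 and 30.7 TPM in D + Q TA and 6.31, 12.99 and 4.71 TPM in D + Q hearts. Within each of these groups its high libraries were those with high Ppbp. Between groups this did not hold. Vehicle hearts had Ppbp of 27.7, 45.1, 20.7 and 15.6 TPM but Angptl4 of only 3.19, 5.11, 3.07 and 2.82 TPM. All values share the same libraries.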
